A study of Nicotiana tabacum with 8 samples.

Results

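A set of 128 of the 135146 unigenes assembled from tobacco (Nicotiana tabacum) leaves was described here, namely unigenes that were near 0 in the warm, present in cold K326 leaves and lower or at 0 in cold CB-1 leaves. A unigene is a de novo assembled transcript cluster, and its abundance is given as log2(value + 1). Members were chosen by their values: at most 0.3 in all 4 control libraries, a lowest K326 cold value above the highest CB-1 cold value by a fixed gap of over 1.2 (its exact size stands with the processing), and a highest CB-1 cold value under 3.5. The unigene c40491_g1, which also met these limits, was left out by the rule. All values of the members in the 8 libraries were thus used to choose them, and they are given below as a description, without a test.

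The cultivars CB-1 and K326 were compared in 4 groups of 2 RNA-seq libraries, named by cultivar (C or K) and then by treatment: CC and KC are the controls of CB-1 and K326, and CT and KT their cold-treated plants. Plants were raised to the 6-leaf stage, and the controls stayed in a chamber at 28 °C by day and 24 °C by night. Cold plants spent 1 day at 4 °C, and each sample pooled upper leaves of 6 plants. The question was how the cold responses of a cold-sensitive cultivar (CB-1) and a more tolerant one (K326) differ. No leaf marker is named in the annotation used here, so the labelled tissue was not checked against markers.

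Plants in the cold reprogram transcription within hours. Calcium signals and the ICE1 and CBF/DREB1 regulators, the latter a branch of the AP2/ERF family, switch on cold-responsive genes whose products protect membranes and proteins or adjust the levels of sugars and proline. Other responses are shared with heat, wounding and pathogen attack, among them heat shock proteins (chaperones that hold or refold unfolding proteins), receptor-like kinases at the cell surface, WRKY factors and enzymes that make or modify defence metabolites.

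An exact 0 in the table may be an absent transcript or a failed estimate. No read counts per unigene were given, so the number of reads behind each value is unknown. A log2 difference against a group at 0 is therefore not read as a fold change. The paper lists the reads of each library, which were fewest for CT1 and most for CT2. Members at 0 numbered 102 in CT1 and 83 in CT2, and the part of depth in this was not tested. Whether the values are scaled by transcript length is not given in the sources used here, so a higher value in one unigene than in another is not read as more transcript. The control libraries did not group by cultivar: over 31884 unigenes Pearson's correlation was 0.961 between CC1 and KC2 and 0.947 between CC2 and KC1, against 0.935 between CC1 and CC2 and 0.913 between KC1 and KC2. The selection treated the 4 controls alike, so that membership did not turn on which cultivar they belong to. In the cold, CT2 correlated with CT1 by 0.924, with KT1 by 0.912 and with KT2 by 0.916. The library CT1 lay further off, with 0.87 to KT1 and 0.871 to KT2. For KT1 with KT2 the value was 0.934. By this measure CT2 was nearly as close to the K326 cold libraries as to CT1. The part of this in the membership was not tested. The number of unigenes above 0 per library was from 41878 in CC2 to 51331 in CT1. In leaf tissue, fewer cells of a type and less RNA per cell cannot be told apart.

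In the warm, 117 of the 128 members were listed at 0 in all 4 control libraries, and the highest control value of any member was 0.30. In the K326 cold libraries the members lay between 1.26 and 5.16 in KT1, with a median of 2.19, and between 1.26 and 4.79 in KT2, with a median of 2.20. In CB-1 cold leaves 81 members (63.3%) were listed at 0 in both libraries, 21 were above 0 in CT2 only, 2 in CT1 only and 24 in both. The median was 0 in CT1 and in CT2. Most of the set was therefore listed as present in cold K326 libraries alone, and a smaller portion was present at a lower value in CB-1 cold as well. Of the 47 members above 0 in a CB-1 cold library, 35 were higher in CT2 than in CT1 and 12 were higher in CT1. The highest values in CB-1 cold were 2.82 in CT1 and 3.06 in CT2, both of c80312_g1.

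**Figure D1:**
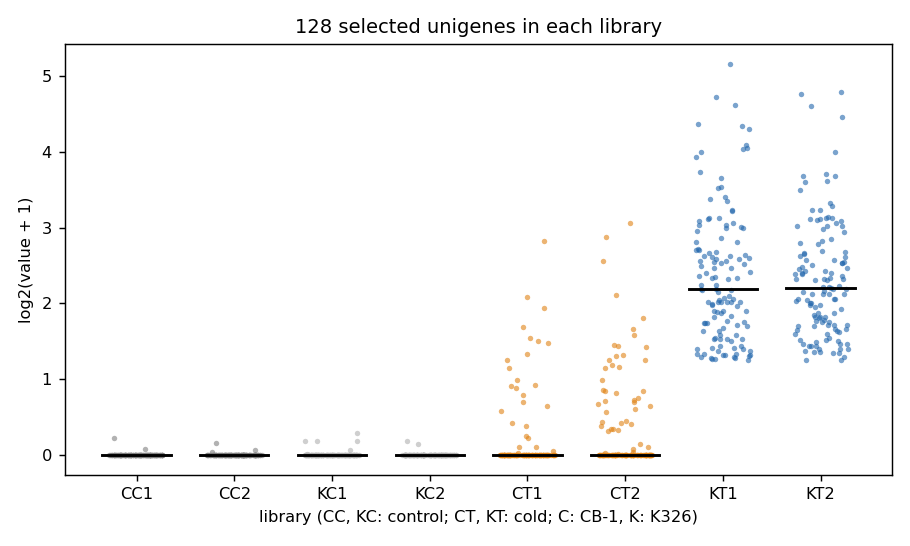
Each point is 1 of the 128 members in 1 library, on a log2(value + 1) scale, with a black bar at the library's median. The 4 control libraries sit at or near 0, the medians of CT1 and CT2 are 0, and those of KT1 and KT2 are 2.19 and 2.20.

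The set is a small portion of the unigenes that were switched on by cold in K326. Of 82716 unigenes at most 0.3 in all controls, 1820 reached 1 in both K326 cold libraries, and the members made up 7.03% of these. Of the 1820, 1113 also reached 1 in both CB-1 cold libraries, and 147 were listed at 0 in both. Nearest to the limit on the gap, c92590_g1 lay at the limit itself, c106461_g1 and c115356_g1 lay inside it with 1.26, and c15455_g2, c88118_g1 and c88273_g1 lay just outside it, each short of it by under 0.01. Near the limit on CB-1 cold, c80312_g1 (3.06), c112370_g1 (2.88) and c86195_g3 (2.57) were inside, and c82304_g1 (3.60) and c112037_g1 (4.83) were outside. Near the limit on the controls, c80479_g5 (0.30), c100667_g1 (0.23) and c104557_g1 (0.19) were inside, and c61492_g1 (0.31), c93900_g1 (0.31) and c82898_g10 (0.34) were outside. The same limits with the cultivars exchanged gave 112 unigenes, of which 72 (64.3%) were listed at 0 in both K326 cold libraries.

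**Figure D2:**
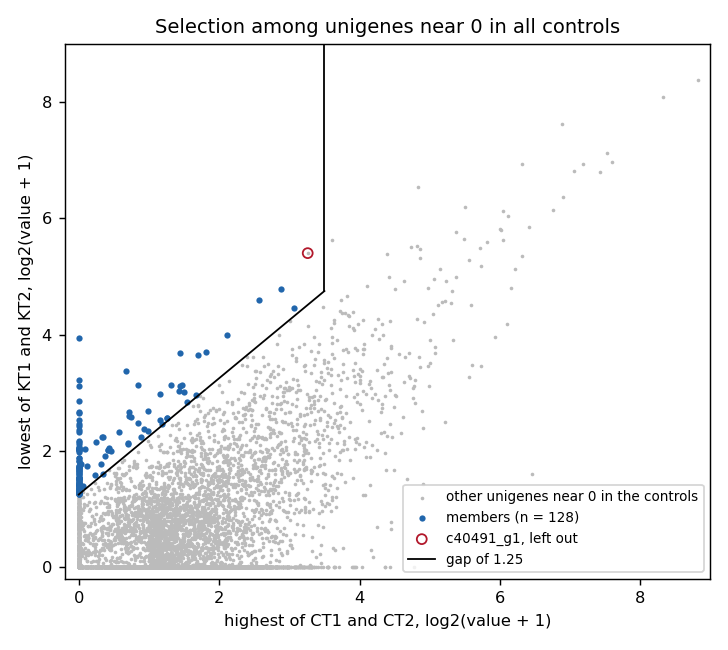
The lowest K326 cold value is plotted against the highest CB-1 cold value, both as log2(value + 1), for unigenes at most 0.3 in all controls and at least 1 in a cold library. Members (blue) lie on or above the sloping line of the required gap and left of a CB-1 value of 3.5, and the ringed unigene c40491_g1 was left out by the rule.

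A name or function from similarity to UniProt proteins was available for 20 of the 128 members. A further 90 members stood without one in the annotated rows used here, and 18 were outside these rows. The names are those of the most similar protein, often of another species, and do not identify the tobacco gene. In all 20, the control libraries were listed at 0 except in KC1 for c51009_g1 (0.19) and c73522_g10 (0.01). Of the 20, 10 were listed at 0 in CT1 and CT2, 6 were above 0 in CT2 only and 4 were above 0 in both.

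Among chaperones, 3 members were annotated, 2 of them as fragments of HSP82, a member of the HSP90 class that helps signalling proteins to fold. The HSP82 unigene c84102_g5 was listed at 0 in CT1 and 1.44 in CT2, and at 4.34 in KT1 and 3.68 in KT2. The HSP82 unigene c84102_g1 was listed at 0 in CT1 and 0.99 in CT2, and at 4.36 in KT1 and 2.69 in KT2. In both, CT2 was above CT1 and KT1 was above KT2. That the cold libraries of the cultivars did not overlap was fixed by the selection. HSP18.2 (c103294_g1), a class I small heat shock protein that binds unfolding proteins in the cytosol, showed the same order, with 0 in CT1, 0.85 in CT2, 4.00 in KT1 and 2.48 in KT2.

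**Figure D3:**
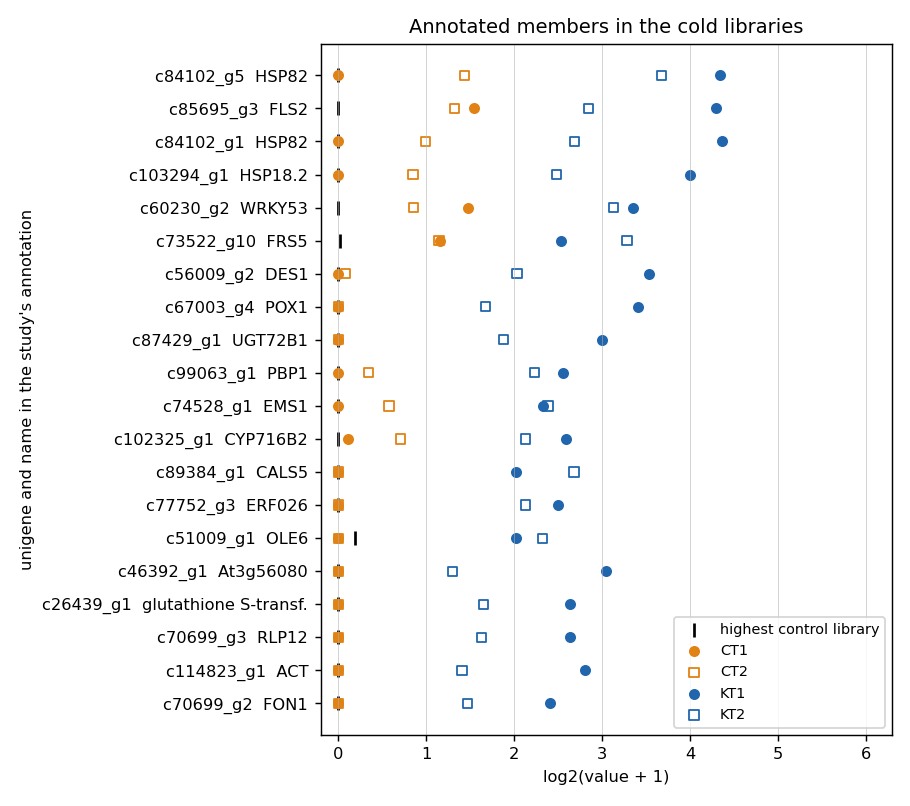
The 20 annotated members, one per line and ordered by the mean of KT1 and KT2, with log2(value + 1) on the horizontal axis. Filled symbols are libraries CT1 and KT1, open squares CT2 and KT2, orange is CB-1 cold, blue is K326 cold, and the tick is the highest control library. Of the 20, 16 were higher in KT1 than in KT2.

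Regulators of transcription were represented by 3 annotated members. ERF026 (c77752_g3), an AP2/ERF factor of the family that includes the CBF/DREB1 proteins, was listed at 0 in CT1 and CT2, at 2.49 in KT1 and at 2.12 in KT2. WRKY53 (c60230_g2), a regulator of leaf senescence in Arabidopsis, was listed at 1.48 in CT1 and 0.86 in CT2, and at 3.35 in KT1 and 3.13 in KT2. Its CB-1 cold libraries were thus both above all 4 controls, which were at 0, and both below the K326 cold libraries, as the selection required. FRS5 (c73522_g10), named after a relative of the Arabidopsis light-signalling factor FAR1, was listed at 1.15 in CT1 and 1.14 in CT2, and at 2.53 in KT1 and 3.28 in KT2. In KT2 its value was the higher of the pair, against the order seen in most annotated members.

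Receptors and signalling proteins made up 5 annotated members. FLS2 (c85695_g3), in Arabidopsis the receptor of bacterial flagellin, was listed at 1.54 in CT1 and 1.32 in CT2, and at 4.29 in KT1 and 2.85 in KT2. It was present in cold CB-1 leaves too, and KT1 and KT2 lay further apart than CT1 and CT2. RLP12 (c70699_g3), a receptor-like protein without a kinase domain, was listed at 0 in CT1 and CT2, and at 2.63 in KT1 and 1.63 in KT2. FON1 (c70699_g2), a leucine-rich repeat receptor kinase that limits floral meristem size in rice, was listed at 0 in CT1 and CT2, and at 2.41 in KT1 and 1.47 in KT2. These last receptor names belong to unigenes of 1 assembly component and had the same order of libraries. EMS1 (c74528_g1), an Arabidopsis receptor kinase of anther development, was listed at 0 in CT1, 0.57 in CT2, 2.33 in KT1 and 2.38 in KT2. PBP1 (c99063_g1), in Arabidopsis a calcium-binding partner of the kinase PINOID, was listed at 0 in CT1, 0.34 in CT2, 2.55 in KT1 and 2.23 in KT2. Both were close in the pair of K326 libraries and near or at 0 in CB-1.

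The other 9 annotated members were mostly enzymes. DES1 (c56009_g2), a 9-divinyl ether synthase that turns fatty acid hydroperoxides into divinyl ether oxylipins, was listed at 0 in CT1, 0.08 in CT2, 3.53 in KT1 and 2.03 in KT2. POX1 (c67003_g4), a mitochondrial proline dehydrogenase that carries out the first step of proline breakdown, was listed at 0 in CT1 and CT2, 3.41 in KT1 and 1.67 in KT2. Both had KT1 above KT2 by over 1. UGT72B1 (c87429_g1), a glycosyltransferase that conjugates phenolic compounds in Arabidopsis, was listed at 0 in CT1 and CT2, 2.99 in KT1 and 1.88 in KT2. A probable glutathione S-transferase (c26439_g1), of a class that conjugates glutathione to reactive compounds, was listed at 0 in CT1 and CT2, 2.63 in KT1 and 1.65 in KT2. The cytochrome P450 CYP716B2 (c102325_g1), of an enzyme class that oxidises small molecules, was listed at 0.11 in CT1, 0.70 in CT2, 2.58 in KT1 and 2.12 in KT2. All of these except CYP716B2 were at or close to 0 in cold CB-1 leaves.

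ACT (c114823_g1), vinorine synthase, an acetyltransferase of ajmaline alkaloid synthesis in Rauvolfia, was listed at 0 in CT1 and CT2, 2.81 in KT1 and 1.41 in KT2. At3g56080 (c46392_g1), a probable methyltransferase, was listed at 0 in CT1 and CT2, 3.04 in KT1 and 1.29 in KT2. Its K326 libraries lay 1.75 apart, the widest spacing among the annotated members. CALS5 (c89384_g1), a callose synthase that builds the pollen wall in Arabidopsis, was listed at 0 in CT1 and CT2, 2.02 in KT1 and 2.68 in KT2. OLE6 (c51009_g1), named after a pollen allergen of olive, was listed at 0 in CT1 and CT2, 2.02 in KT1 and 2.32 in KT2. These were, beside FRS5 and EMS1, the annotated members with KT2 above KT1.

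Over all 128 members neither K326 cold library was favoured: 62 were higher in KT1, 65 were higher in KT2 and 1 was equal. Of the 20 annotated members, 16 were higher in KT1, 9 of them by over 1, and 4 were higher in KT2, 0 of them by over 1. Over the whole set, 15 were higher in KT1 by over 1 and 8 were higher in KT2 by over 1. The median absolute difference between KT1 and KT2 was 0.38 for the members and 0.28 for all unigenes tested. Values of members above 0 in CB-1 cold also reached higher in K326, which the required gap fixes in part: the median of the K326 cold mean was 3.03 for the 24 members above 0 in both CT libraries, 2.73 for the 21 above 0 in CT2 only and 2.02 for the 81 at 0 in both.

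**Figure D4:**
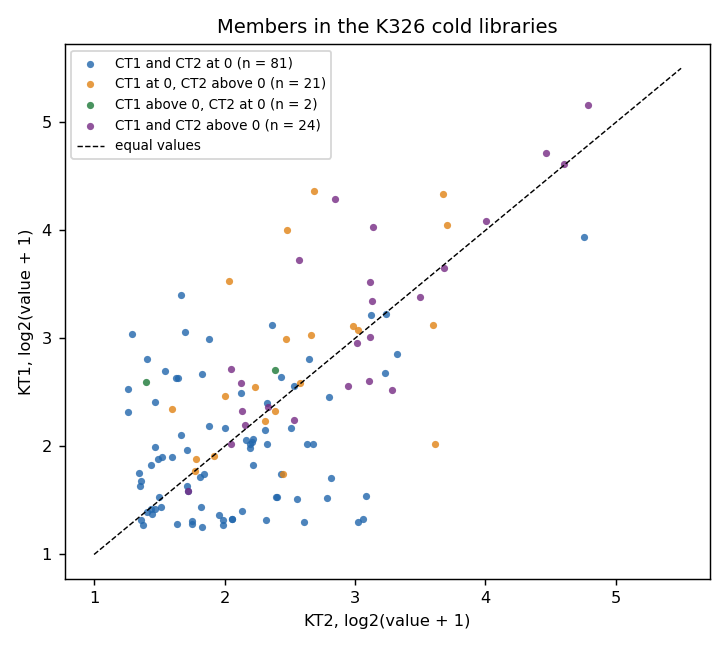
KT1 against KT2 for each of the 128 members, both as log2(value + 1), coloured by the values in CB-1 cold, with a dashed line at equal values. Points lie on both sides of the line, 62 above it and 65 below it.

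Of the 108 members without a name or function, the 8 of highest K326 cold mean were the following. The unigene c112370_g1 was listed at 1.94 in CT1, 2.88 in CT2, 5.16 in KT1 and 4.79 in KT2, and was at 0 in all controls. The unigene c92907_g1 was at 0 in the controls and in CT1 and CT2, and at 3.94 in KT1 and 4.76 in KT2, which is the widest gap between the cultivars in the set (3.94). It was thus listed as present in cold K326 leaves only, at values that most members did not reach. The unigenes c86195_g3 (CB-1 cold 2.08 and 2.57, K326 cold 4.61 and 4.60) and c80312_g1 (2.82 and 3.06, 4.72 and 4.46) were also present in both CB-1 cold libraries. The unigene c47159_g1 was listed at 0 in CT1, 1.81 in CT2, 4.05 in KT1 and 3.71 in KT2. In c80479_g5 the CB-1 libraries were likewise far apart, with 0.03 in CT1 and 2.11 in CT2, against 4.09 in KT1 and 4.00 in KT2, and its controls were 0.30 in KC1 and 0.15 in KC2. The remaining 2 were c73522_g6 (CB-1 cold 1.69 and 1.58, K326 cold 3.65 and 3.69) and c86195_g11 (1.26 and 1.31, 4.03 and 3.14). Among members at 0 in CT1 and CT2, the highest after c92907_g1 were c37525_g1, with 3.23 in KT1 and 3.24 in KT2, and c83583_g3, with 3.22 and 3.12. Of the whole set, 6 members had a K326 cold mean of at least 4, 23 of at least 3 and 45 of under 2.

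The members came from 119 assembly components, sets of related contigs that Trinity derives from 1 graph and that can share sequence, so that unigenes of a component are not independent. In 8 components there was more than 1 member, 17 members in all. Component c69363 held 3 members, none with a name. The unigene c69363_g5 was listed at 3.06 in KT1 and 1.70 in KT2, c69363_g6 at 2.60 and 1.40, and c69363_g7 at 2.70 and 1.55. All were at or near 0 in CB-1 cold, with 0.06 in CT1 for c69363_g6 the only value above 0, and all were higher in KT1. The other pairs were both HSP82 unigenes, RLP12 with FON1, WRKY53 with c60230_g3 (0 in CT1, 0.03 in CT2 and 1.77 in both KT1 and KT2), and FRS5 with c73522_g6. A further 3 pairs were c80479_g4 with c80479_g5, c59176_g1 with c59176_g2, and c86195_g3 with c86195_g11. The unigene c80479_g4 was under 1 in both CB-1 cold libraries (0.65 and 0.67) and over 3 in both of K326. In component c59176, c59176_g1 was listed at 0.42 in CT1, 0.43 in CT2, 2.71 in KT1 and 2.05 in KT2, and c59176_g2 at 0, 0.33, 2.24 and 2.31.

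Other unigenes of the same components that passed the filter on low values (2 or more libraries at a log2 value of 1 or higher, which all 128 members passed) numbered 90 in 40 components. Of these, 78 were above 0.3 in a control library, unlike any member. Both K326 cold libraries were above both CB-1 cold libraries in 34 of the 90 (37.8%), where this was so for 19% of all unigenes tested, and the reverse order was seen in 11, where it was so for 18.5% of all unigenes tested. The median of the K326 minus CB-1 difference in the cold was 0.22 on the log2 scale, against 0.00 over all unigenes tested. Unigenes of a component can share sequence with the member, so the selection may carry over, and these shares are a description. In component c67003, 2 unigenes beside the member POX1 were named POX2, also a proline dehydrogenase. The POX2 unigene c67003_g5 was listed at 0 in CT1 and CT2, 3.68 in KT1 and 2.29 in KT2, with 0.93 in CC2 and 0.20 in KC1. The POX2 unigene c67003_g2 was listed at 0 in CT1 and CT2, 3.83 in KT1 and 1.78 in KT2, with 1.49 in KC1. They missed the set through these control values alone. In contrast, c80479_g6, beside the members c80479_g4 and c80479_g5, was high in both cultivars in the cold, with over 5 in each of the 4 cold libraries, and was above 0 in every control.

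The HSP82 members shared component c84102 with unigenes that were expressed in the warm. The HSP83A unigene c84102_g4, also of the HSP90 class, was listed at 6.79 in CC1, 6.97 in CC2, 7.48 in KC1 and 6.78 in KC2. In the cold it was listed at 3.12 in CT1, 5.30 in CT2, 8.32 in KT1 and 7.22 in KT2. It was therefore lower in cold than in control libraries of CB-1, and in K326 cold it overlapped the controls. The HSP83A unigene c84102_g2 was listed at 5.09 in CC1, 5.32 in CC2, 5.05 in KC1 and 5.21 in KC2, and in the cold at 0 in CT1, 3.67 in CT2, 6.78 in KT1 and 5.81 in KT2. The unigene c84102_g3, without a name, was between 4.39 and 4.84 in all 4 cold libraries. The members are labelled fragments, and reads of near-identical HSP90 copies may be divided among these unigenes, so their separate values are uncertain.

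Heat shock proteins named in the annotated rows numbered 26, 3 of them members. In CB-1, 16 of the 26 fell and 0 rose after cold (limma, Benjamini-Hochberg adjusted p under 0.05 and a log2 difference over 1 in size), where 17.4% of all 31884 unigenes tested fell and 15.5% rose. In K326, 9 rose and 4 fell, against 14.7% and 19.5% of all unigenes; the 3 members, whose rise the selection fixed, are among the 9, which leaves 6 of 23. The 4 that fell were 2 without KC1, KC2 or KT2 and after median-ratio scaling. Cold minus control, the list's median was −2.29 on the log2 scale for CB-1 and 0.50 for K326, against −0.20 and −0.31 over all unigenes. The K326 median ranged from 0.09 without KT1 and 0.14 without KC2 to 0.96 without KT2, and was 0.94 after median-ratio scaling. Both K326 cold libraries were above both CB-1 cold libraries in 26 of 26, where this was so for 19% of all unigenes tested, and for the 3 members the selection fixed this order. The count was 26 after median-ratio scaling and after quantile normalization too. Of the 23 others, 5 were called higher in K326 cold, against 0.248% of all unigenes (over the 26, 15 without CT2 and 0 without any 1 of the other libraries). The rows in which these names were found had been ordered by the size of the difference in response between the cultivars, in either direction, so the unigenes of the list had to differ between the cultivars. The order did not set which cultivar had the larger response, which was K326 in 895 and CB-1 in 1104 of the 1999 rows, but the list was chosen with earlier results known and its direction is given as a description.

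The heat shock unigenes did not share a single profile. HSP70 (c81601_g7), a chaperone of the HSP70 class, stood at 3.07 and 3.31 in the CB-1 controls, 2.82 and 3.88 in CB-1 cold, 3.97 and 3.46 in the K326 controls and 7.38 and 6.39 in K326 cold. It rose by 3.17 on the log2 scale in K326 (standard error 0.46, limma adjusted p = 0.00364), while its difference in CB-1 was 0.16 (adjusted p = 0.805). HSP23 (c69709_g1), a small heat shock protein of the chloroplast, stood at 7.78 and 8.27 in the CB-1 controls and at 3.21 and 4.14 in CB-1 cold. It fell in CB-1 by 4.35 on the log2 scale (limma adjusted p = 0.000643). In K326 it stood at 8.17 and 7.97 in the controls and 6.70 and 6.29 in the cold, a fall of 1.57 (adjusted p = 0.0137). HOP1 (c66022_g6), a co-chaperone that links HSP70 and HSP90, fell in CB-1 by 4.23 and in K326 by 2.63 (limma adjusted p = 0.000219 and 0.000451). The difference in response between the cultivars passed the adjusted threshold for 0 of the 26, where 0% of all unigenes tested were called. In limma 24 had an unadjusted p under 0.05. The ordering of the rows by this difference largely fixes that count, so nothing is read from it. The CT1 value was under the CT2 value in 20 of 26 and KT1 was above KT2 in 20 of 26, and the part of this in the result was not tested. Without CT1 11 of the 26 fell in CB-1 and 1 rose, and without CC2 9 fell and 0 rose.

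**Figure D5:**
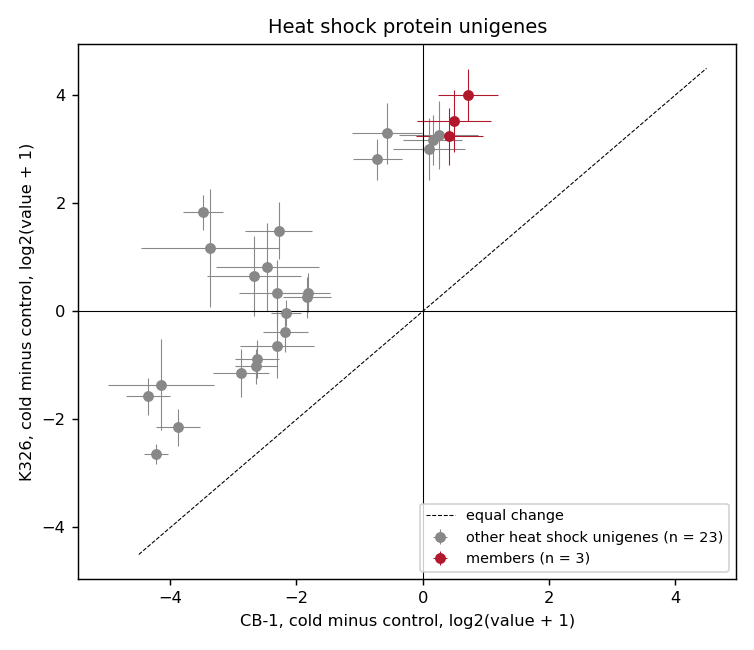
Change of each of the 26 heat shock unigenes in K326 against its change in CB-1, cold minus control as a difference of log2(value + 1), with standard errors from limma as bars. All points lie above the dashed line of equal change, and the 3 members (red) lie between 3.24 and 4.01 in K326.

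Of 14 AP2/ERF factors named in the annotated rows, which include the member ERF026, 3 rose in CB-1 and 6 in K326 and 0 fell in either (limma, same threshold), where 15.5% and 14.7% of all unigenes rose. Without ERF026, whose difference the selection fixed, 3 of 13 rose in CB-1 and 5 of 13 rose in K326. Of the 13, 0 were called higher in K326 cold than in CB-1 cold, against 0.248% of all unigenes. Both K326 cold libraries were above both CB-1 cold libraries in 8 of the 13, where this was so for 19% of all unigenes tested. In 11 of the 14, CT1 was under CT2, and in 4, KT1 was above KT2. ERF109 (c79891_g2), another ethylene response factor, was listed at 0 in CT1, 4.39 in CT2, 4.80 in KT1 and 6.15 in KT2, so that CT2 lay closer to KT1 than to CT1. Of 10 receptor-like proteins and kinases, which include the members FLS2, RLP12, FON1 and EMS1, the 6 that are not members had 0 calls in CB-1, 4 that rose in K326 and 0 called higher in K326 cold, against the same shares of all unigenes. In 5 of the 6, both K326 cold libraries were above both CB-1 cold libraries, against 19% of all unigenes tested. The 4 members were all called higher in K326 after cold, FLS2 also in CB-1 after cold and EMS1 between the cold groups. The selection used their values, so nothing is read from these calls. Beyond the members, SOBIR1 (c80631_g1), a kinase that acts with receptor-like proteins in immunity, stood at 2.83 and 2.81 in the CB-1 controls and 3.63 and 4.97 in CB-1 cold. In K326 its values were 3.19 and 1.89 in the controls and 5.95 and 5.58 in the cold. Both lists come from the same ordered rows as the heat shock list, with the same limit. The 30 transcription factors tabled in the study include c40491_g1 (HBP-1b), which met every limit of the selection and is no member only because the rule left it out, and hold 0 members otherwise. The study tabled them as strong cold responders, and 24 rose and 3 fell in CB-1, 27 and 3 in K326. Both K326 cold libraries were above both CB-1 cold libraries in 19 of the 30, c40491_g1 among them. The 30 include AP2/ERF factors absent from the list of 14, which is thus not the whole family. All of these rose within CB-1, cold against control, among them ABR1 (c74525_g2) by 5.09 and CRF6 (c64865_g1) by 4.61.

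The same limma fit gave calls for the members, from values that the selection had used. In K326, cold against control, 128 of 128 were called higher, where 14.7% of all unigenes tested were. In CB-1, 11 of 128 were called higher and 0 lower, where 15.5% and 17.4% of all unigenes were. Between the cold groups 53 of 128 were called higher in K326, where 0.248% of all unigenes were, and 0 of 128 passed for the difference in response, where 0% of all unigenes were called and 128 of the members had an unadjusted p under 0.05. Since the rule used the values behind these contrasts, nothing is read from the counts. The 11 called in CB-1 (5 without CC1 or without CC2, 7 without CT2) were FLS2, WRKY53, FRS5, c80312_g1, c112370_g1, c86195_g3, c86195_g11, c73522_g6, c70614_g10, c76643_g5 and c66534_g4. The unigene c70614_g10 had values of 1.33 (CT1), 1.66 (CT2), 2.96 (KT1) and 3.02 (KT2). Its 4 cold libraries were all above the controls, which were at 0. Of the 53 called between the cold groups, 32 were at 0 in CT1 and CT2, and 6 were annotated (ERF026, WRKY53, EMS1, PBP1, CALS5 and OLE6). Without CT2 the 53 became 79, and without any 1 of the other libraries 0.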

How the data were processed

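The authors filtered reads with NGSToolkits, assembled the reads of all libraries with Trinity, mapped them onto the unigenes with bowtie and estimated abundance with RSEM. They deposited it as log2(value + 1) per unigene and library, without counts. The scaling behind the value is not given in the sources used here. All 8 columns matched a sample, and 0 columns were left unused. Replicates were pools of plants.

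Members needed a gap of at least 1.25. Unigenes that reached 1 (log2) in 2 or more libraries (31884, all 128 members among them) were fitted with limma 3.58.1 in R 4.3.3, as 4 group means with a variance trend and Benjamini-Hochberg adjustment. A call required an adjusted p under 0.05 and a log2 difference over 1 in size. This moderated test took the place of the unmoderated one in the study's methods, which was run as an alternative. The script was tested on simulated data. Differences of log2(value + 1) understate changes of low values.

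Names came from UniProt similarity in the study's annotation, of which 1999 rows, ordered by the size of the difference in response between the cultivars, were used. The member IDs matched 0 entries of the RefSeq gene table. Named were all annotated members, the 8 unannotated ones of highest K326 cold mean, members sharing a component, the 3 unigenes nearest to each threshold on either side, and the 3 highest at 0 in CB-1 cold. Other unigenes were named after their values were seen. The members and lists were chosen with earlier results of these data known. Pseudocount, filter, scaling, moderation, replicate block, control labels and left-out libraries were varied.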

Additional observations from a re-analysis of the deposited data

Results flagged for a closer look

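In 5 of the 77 unigenes of the named lists (6.49%), none of them a member, both cold libraries lay below both controls in CB-1 and above both controls in K326, which are opposite directions in the cultivars. The same was so for 191 of all 31884 unigenes tested (0.599%). For HSP22 (c35263_g1), a chloroplast small heat shock protein, the response in K326 exceeded that in CB-1 by 3.53 on the log2 scale (limma interaction contrast, adjusted p = 0.228). The difference was 3.78 for HSP70 (c57339_g2, adjusted p = 0.268) and 5.32 for an HSP70 fragment (c81601_g6, adjusted p = 0.154), the latter listed at 0 in CT1 and CT2 and between 1.99 and 3.85 in the controls. For HSP83A (c84102_g2), in the component of the HSP82 members, it was 4.54 (adjusted p = 0.445), with CT1 at 0 and CT2 at 3.67. For the receptor-like kinase At4g27290 (c85579_g1) it was 1.61 (adjusted p = 0.374). None of these differences passed after Benjamini-Hochberg adjustment in limma, and all came from rows ordered by this difference. Within CB-1, the fall was called for HSP70 (−2.28) and the HSP70 fragment (−3.48) only. It was not called for HSP83A (−3.37, limma adjusted p = 0.0504), HSP22 (−0.72, adjusted p = 0.183) or At4g27290 (−0.755, adjusted p = 0.124). For HSP22 the nearest CB-1 libraries were CC1 at 0.60 and CT1 at 0.52, both low values.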

How the results depend on the processing

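The rule gave 128 members, and 239 with a gap of 1, 79 with a gap of 1.5, 168 after median-ratio scaling (127 of the 128 kept) and 143 after quantile normalization (125 kept). Leaving out 1 library gave 132 to 929 unigenes, with 892 without KT1, 929 without KT2, 284 without CT2 and 192 without CT1. The 128 were among them each time, which is fixed, since leaving out a library can only loosen the limits. Members called between the cold groups (53) were 34 with a pseudocount of 0.1, 0 without the filter, 0 with a filter at 2, 91 after median-ratio scaling, 116 with CC2 and KC2 exchanged, 0 with cold libraries only and 0 to 79 without 1 library. Members called in CB-1 (11) were 18 with a pseudocount of 0.1, 6 without the filter and 5 to 13 without 1 library (5 without CC1 or CC2, 7 without CT2). Members called in K326 (128) were 62 with a filter at 2, which only 62 members passed, and 120 to 128 without 1 library. For the difference in response (0), 39 were called in the unmoderated test, 8 with CC2 and KC2 exchanged, and 0 without any 1 library. With the replicate number as a block, calls between the cold groups were 0 and those in CB-1, K326 and for the difference 10, 128 and 0. The numbers do not pair the samples, since differences between replicates correlated by −0.376 for CC with KC and by −0.043 to 0.044 for other groups. Heat shock calls, varied after seeing the data, were 9 to 16 lower in CB-1, 8 to 10 higher in K326 and 0 to 15 higher between the cold groups (15 without CT2) without 1 library, the last 10 after median-ratio scaling. For the 37 named members, 221 of 259 other K326 minus CB-1 cold values moved by less than the replicate spread. A further 38 moved by more, 32 of these with a pseudocount of 0.1, and 0 reversed. The required gap fixes this direction without a library or with another pseudocount, so nothing is read from it. Median-ratio scaling brought the median change of all unigenes to 0.00 in either cultivar (before, −0.20 for CB-1, −0.31 for K326). No counts per unigene were given, so the precision of single values by depth is unknown.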
